A study of Homo sapiens with 12 samples.

Results

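The gelatinases MMP2 and MMP9 and the membrane-type matrix metalloproteinases (MMPs) MMP14, MMP15, MMP16, MMP17 and MMP24 were followed at the transcript level in HT1080 cells. This is an established human fibrosarcoma line, described in the study as wild type. The 7 genes were chosen by name, and all 7 are among the 15459 genes listed for both experiments of the study. Polyadenylated RNA was sequenced in 12 libraries, that is 4 groups of 3. PMA (phorbol 12-myristate 13-acetate, 40 nM), a phorbol ester that activates protein kinase C, was set against control cells in one experiment. ConA (concanavalin A, 40 µg/mL), a lectin that binds mannose and glucose residues, was set against a separate group of control cells in the other. Both agents were present for 24 h, and the protocol describes a low-serum, biotin-depleted medium. The labels give no vehicle for the controls, and do not say whether the replicate libraries came from separate cultures, so the p-values below measure the spread between these libraries, which may be technical.

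MMP2 and MMP9 are secreted enzymes that cleave denatured collagen (gelatin) and the type IV collagen of basement membranes, and both are made as inactive proenzymes. The membrane-type MMPs are held at the cell surface. MMP14, MMP15, MMP16 and MMP24 span the membrane, whereas MMP17 is attached by a glycosylphosphatidylinositol anchor. MMP14, also called MT1-MMP, cleaves fibrillar collagen and is the best known activator of proMMP2, which it receives through a bridging molecule of the inhibitor TIMP2. HT1080 cells are widely used to study this reaction, and PMA and ConA are both classical agents for provoking MMP2 activation in culture. The measurements here are of RNA, and carry no information on secretion, activation or enzyme activity.

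Promoter sequences were at hand for 3 of the 7 members in the RefSeq table (GRCh38.p14). They are shown because no other member had an entry. These 3 membrane-type genes had the highest transcript level of the family (MMP14), a level near its low end (MMP15) and the lowest level, with a fall under both treatments (MMP24). Each line is the plus strand, which is the coding strand for all 3, and covers the 250 bases before the annotated start. Capitals mark the GC box, searched as GGGCGG or its reverse complement CCGCCC.
MMP14 chr14:22836335-22836584: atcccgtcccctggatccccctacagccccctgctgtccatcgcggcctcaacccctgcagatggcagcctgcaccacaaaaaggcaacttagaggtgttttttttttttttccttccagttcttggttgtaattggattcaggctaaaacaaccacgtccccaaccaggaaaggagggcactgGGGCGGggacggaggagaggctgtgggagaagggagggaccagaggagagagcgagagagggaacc
MMP15 chr16:58025504-58025753: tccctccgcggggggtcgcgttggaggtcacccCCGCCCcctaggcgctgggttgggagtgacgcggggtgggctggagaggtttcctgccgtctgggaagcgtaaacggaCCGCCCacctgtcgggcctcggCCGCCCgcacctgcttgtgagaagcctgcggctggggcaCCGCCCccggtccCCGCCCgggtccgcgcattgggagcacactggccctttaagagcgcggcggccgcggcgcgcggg
MMP24 chr20:35226440-35226689: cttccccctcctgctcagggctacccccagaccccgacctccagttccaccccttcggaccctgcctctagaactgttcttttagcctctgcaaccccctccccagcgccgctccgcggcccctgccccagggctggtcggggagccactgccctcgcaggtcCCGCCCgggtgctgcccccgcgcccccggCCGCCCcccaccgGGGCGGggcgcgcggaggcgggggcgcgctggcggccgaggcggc
The MMP14 promoter held 1 GC box, whose first base lies 66 bases before the start. The MMP15 promoter held 5, between 217 and 65 bases before the start, and the MMP24 promoter held 3, between 87 and 45 bases before it. A GC box occurred in 42.3% of all 27305 promoters of the same length. The G and C content was 56.8% for MMP14, 74.8% for MMP15 and 77.6% for MMP24. The letters of the AP-1 element, TGAGTCA or TGACTCA, were in none of the 3 windows and in 4.16% of all promoters.

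The values are normalized counts: the number of reads assigned to a gene, scaled to a common depth within each experiment. The libraries held an estimated 33637952 to 45595027 reads on genes. A call required that the log2 fold change reach 1 in either direction and that the limma adjusted p, from values of log2(normalized count + 1), not exceed 0.0001. The words rose and fell are kept for called genes. The mesenchymal markers VIM, FN1, CDH2 and SPARC were all listed. Their summed level was 426689 to 435158 normalized counts in the PMA controls and 405374 to 424171 after PMA, with VIM at a mean of 195751 against 275216 and SPARC at 63219 against 21957. In the ConA experiment the sum was 489605 to 566472 in the controls and 364799.9 to 397713 in the treated libraries. The markers did not move together there. The means of FN1 (268826 against 166724) and VIM (138419 against 79796) were lower with ConA. CDH2 was higher (4748 against 6559.9), and SPARC was at 122718 against 125616. The epithelial markers listed summed to 27552 to 29422 in the PMA controls and 15533 to 16121 after PMA. All of that sum was the keratins KRT8 (mean 15196 against 6528) and KRT18 (13524 against 9277). In the ConA experiment the markers listed summed to 39151 to 40702 in the controls and 34525 to 37333 in the treated libraries. EPCAM and CDH1 were not listed in the PMA experiment and lay between 2.0 and 31.0 normalized counts in the ConA experiment, and KRT5 was listed in neither. The part of these marker shifts in the results below was not tested.

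MMP9 rose and MMP24 fell with both agents, MMP2 fell with PMA, and MMP16 fell with ConA. In the PMA experiment 3 of the 7 members were called, 1 higher and 2 lower, where 8.65% of all genes tested were called (4.03% higher and 4.61% lower). In the ConA experiment 3 of the 7 were called as well, again 1 higher and 2 lower, where 8.71% of all genes were called (5.83% higher and 2.88% lower). MMP9 and MMP24 were called with both agents, as were 2.31% of the genes tested in both experiments, MMP9 higher (1.13%) and MMP24 lower (0.866%). MMP2 was called with PMA and not with ConA (6.35% of those genes), and MMP16 with ConA and not with PMA (5.93%). The median log2 fold change over the members was -0.847 with PMA, beside 0.003 over all genes tested, and -0.213 with ConA, beside -0.002. In cultures measured in bulk, fewer cells that express a gene and less of its RNA per cell cannot be told apart.

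**Figure D1:**
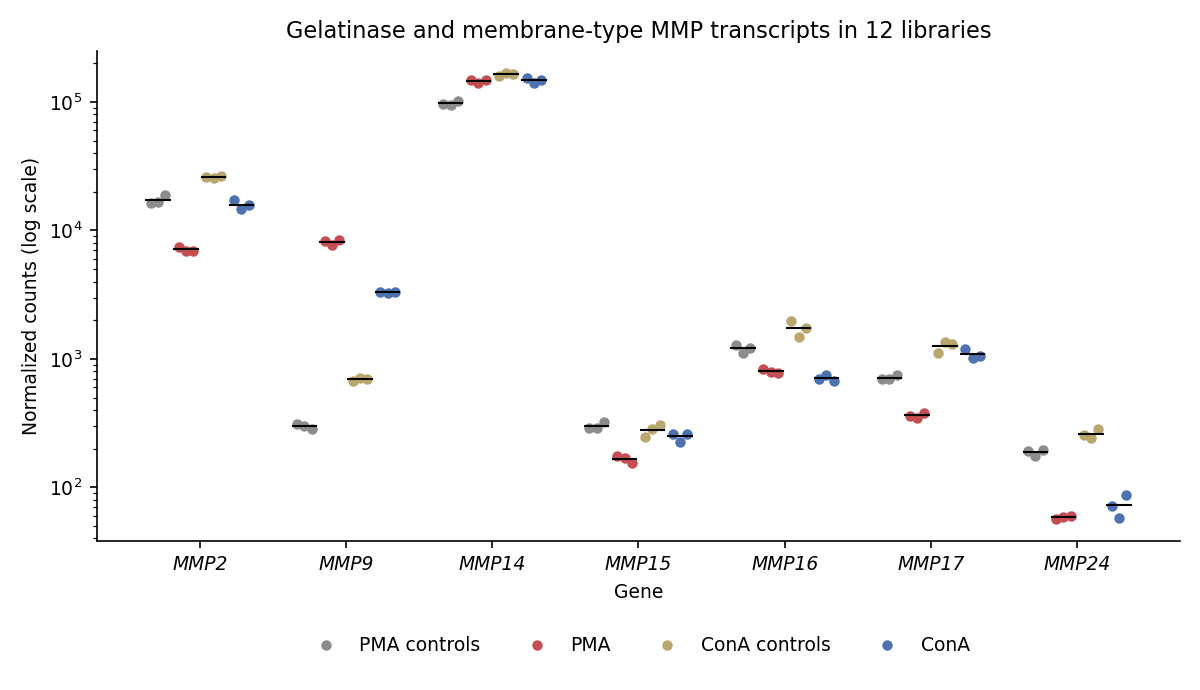
Normalized counts (log scale) of the 7 members in each of the 12 libraries, with a point for each library and a black line at the mean of the 3 libraries of a group. MMP9 sits between 286 and 311 in the PMA controls and between 7757 and 8397 with PMA, and MMP14 stands above the other members in each group. The experiments were normalized separately, so control levels of one are not strictly comparable with those of the other.

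MMP9, the gelatinase known for its strong inducibility by inflammatory stimuli, had the largest change of the family with each agent. Its normalized counts were 311, 299 and 286 in the PMA controls and 8343, 7757 and 8397 with PMA. The mean went from 299 ± 12.3 to 8166 ± 355 (SD, n = 3), a 27.3-fold rise, with a log2 fold change of 4.77 (SE 0.05) and a limma adjusted p of 6.35e-14. Every treated library lay far above every control.

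With ConA, MMP9 measured 667, 713 and 703 normalized counts in the controls and 3314, 3278 and 3298 in the treated libraries. The rise was 4.74-fold, with a log2 fold change of 2.25 (SE 0.06) and a limma adjusted p of 2.79e-13. The treated libraries stood close together, and none overlapped a control. The rise was larger with PMA than with ConA: the difference of the log2 fold changes was 2.52 (95% interval 2.37 to 2.68), with a limma adjusted p of 7.19e-15. MMP9 was the 1 member called for this difference, where 10.6% of all genes tested were called (3.67% in the direction of MMP9).

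MMP9 is also a well known product of leukocytes, so their markers are given beside it. Of 6 leukocyte markers, 5 were listed in the PMA experiment, with summed levels of 5329 to 5782 normalized counts in the controls and 7605 to 8063 with PMA. Most of that sum is CD68, a lysosomal glycoprotein of macrophages that many other cells also make. PTPRC, the pan-leukocyte antigen CD45, was at 176 to 187 normalized counts in the PMA controls and 168 to 328 with PMA, and CD3E, a T-cell receptor subunit, was at 109.7 to 125 and 176 to 233. CD2, another T-cell antigen, overlapped, with means of 75.9 ± 15.7 and 103 ± 32.3 (SD, n = 3), and LYZ, lysozyme, was at 5.53 to 15.3 and 1.16 to 4.75. In the ConA experiment 2 of the 6 were listed, CD68 and LYZ, while PTPRC, CD3E, CD2 and CD14 were not. Their sums were 5834 to 6252 in the controls and 17286 to 20503 with ConA. Nearly all of that sum was CD68, at 5742 to 6142 in the controls and 17142 to 20414 with ConA. LYZ overlapped, at 78.1 to 109 and 89.9 to 144. The part of these markers in the MMP9 result was not tested.

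MMP2, the gelatinase that fibroblasts and fibrosarcoma cells make constitutively, moved the other way. It measured 16410.2, 16600.5 and 18798 normalized counts in the PMA controls and 7490.4, 6974 and 6895 with PMA. The fall was 2.42-fold, with a log2 fold change of -1.28 (SE 0.06) and a limma adjusted p of 3.97e-09. All PMA libraries were below all of their controls.

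With ConA, MMP2 measured 25967, 25582 and 26526 normalized counts in the controls and 17339, 14653 and 15741 in the treated libraries. The groups did not overlap, and the level was 1.64-fold lower, but the log2 fold change of -0.71 (SE 0.06, limma adjusted p 1.9e-07) is under the minimum size for a call. The log2 fold change with PMA less that with ConA was -0.56 (95% interval -0.75 to -0.38, limma adjusted p 2.6e-05), and -0.86 under quantile normalization (limma adjusted p 1.28e-07). The size of this difference too is under the minimum for a call.

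The ratio of the gelatinase transcripts within a library does not depend on the scaling of that library. The ratio of MMP9 to MMP2 normalized counts was 0.019, 0.0181 and 0.0153 in the PMA controls and 1.11, 1.11 and 1.22 with PMA. It was 0.0257, 0.0279 and 0.0265 in the ConA controls and 0.191, 0.224 and 0.21 with ConA. The change was 66.0-fold with PMA (log2 change 6.05, SE 0.10) and 7.78-fold with ConA (2.96, SE 0.07). Neither experiment had overlapping groups. The exact two-sided permutation p was 0.1 in both, the smallest value that 3 against 3 libraries can give.

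Divided by exon length, to allow levels of different genes to be set side by side, MMP9 made up 3.54% ± 0.38 (SD, n = 3) of the summed gelatinase level per kb in the PMA controls and 70.8% ± 1.07 with PMA. In the ConA experiment the share was 5.34% ± 0.211 in control and 30.5% ± 1.67 in treated libraries. MMP9 thus passed MMP2 in the PMA libraries and stayed below it in the ConA libraries. The sum of MMP2 and MMP9 itself was 3629 ± 264 per kb in the PMA controls and 4939 ± 184 after PMA. For ConA it was 5573 ± 95.7 in the control libraries and 4637 ± 282 in those treated. The gelatinase sum was thus above all controls in each PMA library and below all controls in each ConA library.

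**Figure D2:**
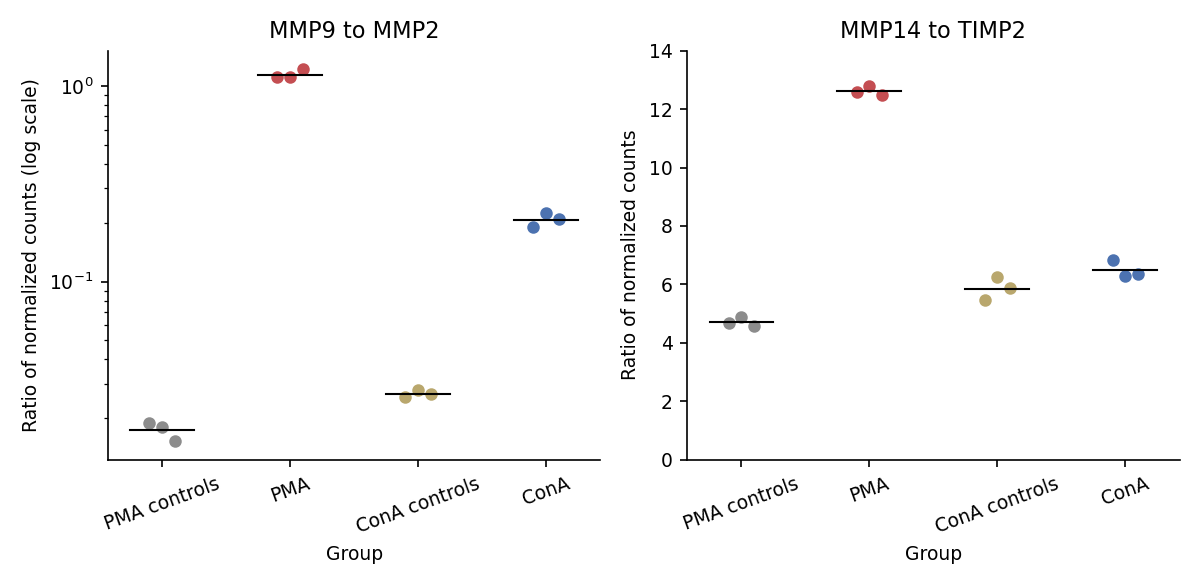
Ratios of normalized counts within each library, for MMP9 to MMP2 (left, log scale) and for MMP14 to TIMP2 (right, linear scale from 0), with a point for each library and a black line at the geometric mean of each group. MMP9 to MMP2 was above 1 in the PMA libraries alone, and MMP14 to TIMP2 ranged from 12.5 to 12.8 in those libraries and from 4.59 to 6.84 in the other 3 groups.

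MMP14 was by far the most abundant member. Its level was 21815 ± 763 normalized counts per kb in the PMA controls and 36701 ± 1009.6 in the ConA controls (SD, n = 3). It ranked 46 of 15189 genes per kb in the PMA controls and 22 of 15109 in the ConA controls, and 27 and 19 in the treated libraries. It held between 84.5% and 86.8% of the members' summed level per kb in the means of the 4 groups.

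With PMA, MMP14 went from 96803, 94303 and 101044 normalized counts in the controls to 147356, 141215 and 148600.0. The level was 1.5-fold higher, with a log2 fold change of 0.58 (SE 0.05, limma adjusted p 8.99e-07), and the groups did not overlap. The change is under the minimum size for a call, and it was 0.39 under quantile normalization (limma adjusted p 4.84e-05). With the scaling as deposited, the level gained per kb was larger than that of MMP9: treated minus control was 10829 normalized counts per kb for MMP14 and 3368 for MMP9.

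With ConA, MMP14 measured 159044, 167992 and 164462 normalized counts in the controls and 153141, 141002 and 148198 in the treated libraries. The treated libraries were below the controls without overlap, but by a small amount: the log2 fold change was -0.15 (SE 0.06, 95% interval -0.29 to -0.02, limma adjusted p 0.048), and it turned to 0.17 under quantile normalization (limma adjusted p 0.00601). No direction can therefore be given for MMP14 with ConA. The change with PMA exceeded that with ConA by 0.73 (log2, 95% interval 0.58 to 0.89, limma adjusted p 2.3e-07), or by 0.22 under quantile normalization (limma adjusted p 0.0112).

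TIMP2, the inhibitor that bridges MMP14 to proMMP2, was at 20644 ± 1346 normalized counts in the PMA controls and 11525 ± 463 after PMA (SD, n = 3). In the ConA experiment it was at 28002 ± 1071 in the controls and 22709.9 ± 514 in the treated libraries. The ratio of MMP14 to TIMP2 normalized counts was 4.69, 4.88 and 4.59 in the PMA controls and 12.6, 12.8 and 12.5 with PMA, a 2.68-fold change (log2 change 1.42, SE 0.03). It was 5.48, 6.25 and 5.86 in the ConA controls and 6.84, 6.29 and 6.36 with ConA, a 1.11-fold change (log2 change 0.15, SE 0.07). The lowest ConA library exceeded the highest control only narrowly. The exact two-sided permutation p was 0.1 for both, the smallest possible.

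MMP15, also called MT2-MMP a close relative of MMP14, was a low-level transcript. It measured 289.5, 287 and 324 normalized counts in the PMA controls and 175, 168 and 156 with PMA. The level was 1.8-fold lower without overlap (log2 fold change -0.85, SE 0.09, limma adjusted p 1.08e-05), short of a call by size. With ConA it measured 247, 285 and 304 in the controls and 260.3, 226 and 261 in the treated libraries, which overlapped. No change was detectable there, with a log2 fold change of -0.16 (95% interval -0.39 to 0.07, limma adjusted p 0.207). The difference between the agents was -0.69 (95% interval -0.99 to -0.39, limma adjusted p 0.000473), and -0.45 under quantile normalization (limma adjusted p 0.0123).

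MMP16, or MT3-MMP, was called lower with ConA. Its normalized counts were 1961, 1493 and 1733 in the ConA controls and 692, 755 and 676 with ConA. The fall was 2.43-fold, with a log2 fold change of -1.28 (SE 0.09) and a limma adjusted p of 2e-08, although without the variance trend the adjusted p was 0.000239, past the limit for a call. With PMA it went from 1286, 1106 and 1220.5 to 837, 784 and 772, which was 1.51-fold lower (log2 fold change -0.59, SE 0.06, limma adjusted p 1.01e-05) and not called. The treated libraries were below the controls in both experiments. The log2 change of MMP16 with PMA lay above that with ConA by 0.69 (95% interval 0.44 to 0.94, limma adjusted p 8.39e-05).

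MMP17, the glycosylphosphatidylinositol-anchored MT4-MMP, lay just outside the call with PMA. It measured 697, 697 and 743 normalized counts in the PMA controls and 359.9, 347 and 382 with PMA, a 1.96-fold lower level (log2 fold change -0.97, SE 0.07, limma adjusted p 1.84e-07). Without the third PMA library the log2 fold change was -1.01 and the gene was called, which takes the count of members called from 3 to 4. With ConA it measured 1116, 1362 and 1312 in the controls and 1204, 1013 and 1049.6 in the treated libraries. These groups overlapped, and the log2 fold change was -0.21 (95% interval -0.40 to -0.03, limma adjusted p 0.0403). The change was lower with PMA than with ConA (difference -0.76, 95% interval -1.0 to -0.52, limma adjusted p 1.88e-05).

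MMP24, or MT5-MMP, which is best known from the nervous system, fell with both agents. It measured 193, 176 and 194 normalized counts in the PMA controls and 57.1, 58.5 and 59.9 with PMA, a 3.17-fold fall (log2 fold change -1.66, SE 0.12, limma adjusted p 2.34e-07). It measured 256, 244 and 287 in the ConA controls and 72.1, 57.9 and 87.5 with ConA, a 3.62-fold fall (log2 fold change -1.86, SE 0.15, limma adjusted p 1.02e-07). Without the variance trend the ConA call was lost, at an adjusted p of 0.000221. Treated and control libraries were well apart in both experiments. The difference between the agents was 0.19 (log2, 95% interval -0.22 to 0.60, limma adjusted p 0.406) and depended on the scaling: it was 0.52 under quantile normalization (limma adjusted p 0.0277). It was 0.043 without the second ConA library and 0.336 without the third.

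The MMP24 values carry an uncertainty. The exons of MMP24 and of MMP24OS, a gene on the opposite strand, share 799 bases in the GENCODE 29 annotation of GRCh38, and whether strand was used in counting is not given in the sources used here, so reads of these genes may not be separable there. MMP24OS was the more abundant of the pair, at 1565, 1546 and 2070.4 normalized counts in the PMA controls and 1707, 1572 and 1371 with PMA. With ConA it went from 2935, 3291 and 2982 to 1782, 1488 and 1623. Its log2 fold change was -0.15 with PMA (SE 0.11, limma adjusted p 0.251) and -0.91 with ConA (SE 0.07, limma adjusted p 6.74e-08), neither of which is a call.

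MMP25, the other glycosylphosphatidylinositol-anchored membrane-type MMP and a leukocyte enzyme (leukolysin), had low counts. It measured 118, 83.6 and 82.0 normalized counts in the PMA controls and 128, 152 and 145 with PMA, with a log2 fold change of 0.60 (SE 0.15, limma adjusted p 0.00559). In the ConA experiment the controls were at 26.1, 48.2 and 37.2 and the treated libraries at 44.6, 21.7 and 46.5, with a log2 fold change of -0.02 (SE 0.31, limma adjusted p 0.967). The groups overlapped with ConA and did not with PMA. MMP25 was not called in either experiment. The leukocyte markers given with MMP9 apply here too, and their part was not tested.

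**Figure D3:**
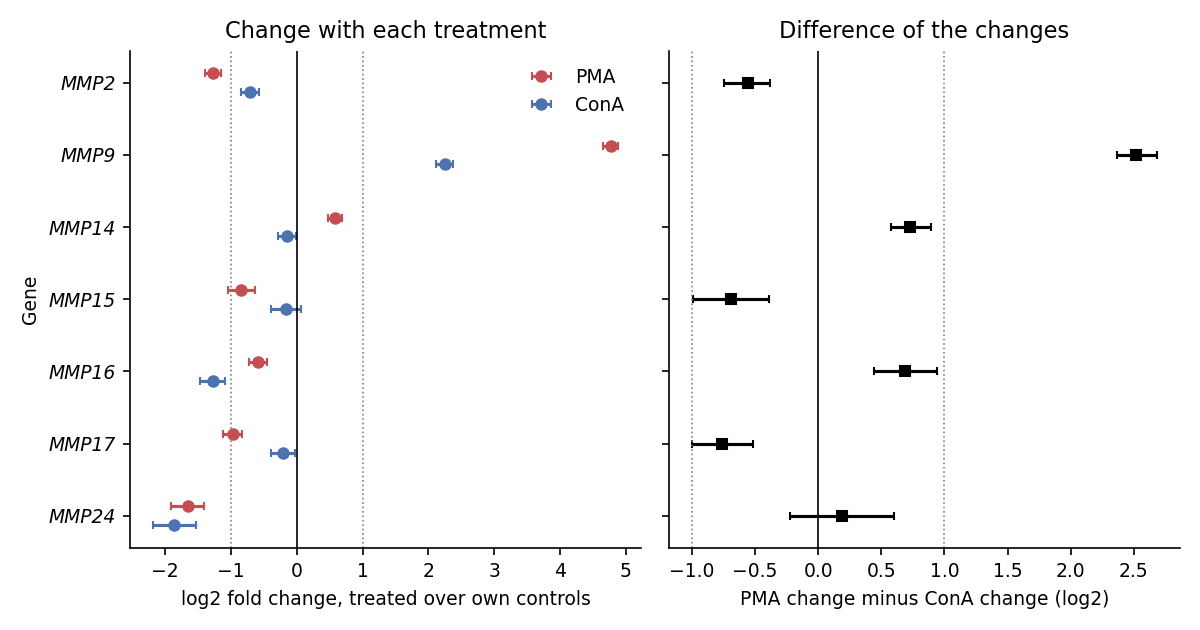
Left, log2 fold change of each member over the controls of the same experiment, for PMA and for ConA. Right, the PMA log2 fold change less that of ConA. Points are limma estimates over 3 libraries per group, bars are 95% intervals and dotted lines mark the minimum size for a call. MMP9 stands at 4.77 and 2.25, and the interval of the difference for MMP24 includes 0 with the scaling as deposited.

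Without a minimum fold, 7 of 7 members had an adjusted p of at most 0.05 with PMA and 6 of 7 with ConA, but so did 63.3% and 65.3% of all genes tested. The treated libraries were clear of the controls for 7 of 7 members with PMA (2 higher, 5 lower) and for 5 of 7 with ConA (1 higher, 4 lower), beside 67.9% and 69.3% of all genes (33.1% and 34.4% lower). For the difference between the agents 6 of 7 had an adjusted p of at most 0.05, beside 61.1% of all genes. By these looser measures most genes of the cell pass as well.

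The order of the members by level per kb was the same in both control groups: MMP14, MMP2, MMP17, MMP9, MMP16, MMP15 and MMP24. In the ConA controls MMP17 and MMP9 overlapped in their libraries, and so did MMP15 and MMP24. With PMA, MMP9 moved to the second place, ahead of MMP2, at 3496 ± 152 against 1443 ± 65.5 normalized counts per kb (SD, n = 3). With ConA it moved to the third, behind MMP2, at 1411 ± 7.85 against 3225 ± 274. Among all genes ranked per kb, MMP9 went from 7983 to 415 of 15189 with PMA and from 5550 to 1330 of 15109 with ConA, whereas MMP2 went from 373 to 1124 and from 304 to 507. MMP24 was the lowest of the 7 in each group, at 42.5 ± 2.2 per kb in the PMA controls and 13.3 ± 0.326 with PMA.

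For the members called with at least one agent, the genes with the most similar pattern were found by the root mean square difference in log2 level, relative to the control mean, over 12 libraries and 14660 genes. For MMP2 these were SNN, CNIH3 and PCOLCE, at 0.06, 0.08 and 0.08. PCOLCE encodes an enhancer of procollagen processing, and its log2 fold changes were -1.18 with PMA and -0.76 with ConA. For MMP9 the nearest genes were SERPINA1 (alpha-1-antitrypsin), BCL2A1 (an apoptosis inhibitor of the BCL2 family) and CYB5R2, which were less close, at 0.19, 0.25 and 0.35. SERPINA1 had log2 fold changes of 4.98 and 2.08. For MMP16 they were TBL1X, TTC3 and DLG1 (0.08, 0.10 and 0.11), and for MMP24 they were GLI1, PLPP4 and SYTL1 (0.19, 0.21 and 0.22). GLI1, a transcription factor of the hedgehog pathway, had log2 fold changes of -1.77 and -1.56. The libraries and their scaling are shared by all genes compared, and these distances are descriptions.

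Genes that control these enzymes were examined as lists, chosen with earlier results of these data known, the first being their inhibitors. Of 5 MMP inhibitors 4 were tested, TIMP4 being the exception. With PMA 1 was called higher and 1 lower, beside 4.03% and 4.61% of all genes tested. With ConA 1 was called lower, beside 2.88%. With PMA, TIMP1 rose (log2 fold change 2.95, SE 0.05, limma adjusted p 1.83e-12) and TIMP3 fell (-3.51, SE 0.07, limma adjusted p 1.36e-11), and with ConA TIMP3 fell (-1.58, SE 0.07, limma adjusted p 6.78e-11). TIMP1 is the inhibitor that binds proMMP9, and TIMP3 is the one held in the matrix. TIMP1 went from 6714 ± 170.3 to 52012 ± 3176 normalized counts with PMA and from 6522 ± 114 to 8386 ± 185 with ConA (SD, n = 3). TIMP2 (-0.84 with PMA, -0.30 with ConA) and RECK (-0.27 and 0.20), a membrane-anchored inhibitor, were not called. The list's median log2 fold change was -0.56 with PMA and -0.05 with ConA.

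The proprotein convertases remove the propeptide of membrane-type MMPs inside the cell. Of 7 genes 6 were tested, PCSK2 being the exception. With PMA 2 were called lower and with ConA 1, beside 4.61% and 2.88% of all genes tested. PCSK1 (-2.55) and PCSK5 (-1.08) fell with PMA, and PCSK4 fell with ConA (-1.49), all as log2 fold changes. With PMA, PCSK4 had a log2 fold change of -1.69 (limma adjusted p 0.000387), which misses the limit for a call on the p. PCSK4 was scarce, at 64.5 ± 7.95 normalized counts in the ConA controls and 22.6 ± 4.75 with ConA. PCSK6 was not called, with log2 fold changes of 0.07 with PMA and -0.77 with ConA (limma adjusted p 6.31e-07 with ConA). FURIN, the convertase best known for processing MMP14, was not called, with log2 fold changes of 0.21 and 0.11. The median was -0.55 with PMA and 0.04 with ConA.

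Of 15 genes whose products bind, hold or clear the gelatinases and MMP14 at the cell surface, 14 were tested, LCN2 being the exception. With PMA 1 was called higher and 4 lower, beside 4.03% and 4.61% of all genes tested. With ConA none of the 14 was called, beside 8.71% of all genes tested. There 12 had an unadjusted limma p under 0.05, as did 68.2% of all genes tested. ITGB3, the beta-3 integrin subunit, rose with PMA (log2 fold change 1.33). LRP1, the endocytic receptor that clears MMP2 and MMP9, fell with PMA (-1.20), as did the thrombospondins THBS1 (-1.76) and THBS2 (-1.09), which take part in that clearance. With ConA these genes had log2 fold changes of -0.68 (ITGB3), -0.27 (LRP1), -0.51 (THBS1) and -0.77 (THBS2). The median was -0.08 with PMA and -0.21 with ConA.

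Of 6 genes of invadopodia, the protrusions where MMP14 is delivered, none was called with PMA, beside 8.65% of all genes tested. With PMA 4 had an unadjusted limma p under 0.05, as did 66.7% of all genes tested. With ConA 1 was called lower, beside 2.88% of all genes tested. This was SH3PXD2A, the scaffold TKS5 (log2 fold change -1.40 with ConA, limma adjusted p 1.26e-08), which went from 5043 ± 827 to 1887 ± 76.7 normalized counts (SD, n = 3). With PMA its log2 fold change was 0.02. WASL (0.62 with PMA, 0.28 with ConA), SRC (0.19 and 0.45) and CTTN, cortactin (0.42 and 0.02), were not called. The median was 0.14 and 0.15.

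Of 8 genes for matrix substrates, 6 were tested in each experiment. With PMA 1 was called lower, beside 4.61% of all genes tested, and with ConA 1 was called higher, beside 5.83%. COL1A2, a chain of type I collagen, fell with PMA (log2 fold change -1.04, SE 0.11, limma adjusted p 7.77e-06) and had a value of 0.92 with ConA. COL1A1, the other chain, did not follow it and was not called. Its values were -0.17 with PMA (limma adjusted p 0.423) and -0.66 with ConA (limma adjusted p 1.78e-06). COL4A1, a chain of the type IV collagen that gelatinases cleave, had log2 fold changes of -0.80 and 0.77 and was not called in either. FN1, fibronectin, had values of -0.56 and -0.68, not called in either. DCN, the proteoglycan decorin, was called higher with ConA (3.36, SE 0.46, limma adjusted p 1.78e-05), from a level of 1.68 ± 1.14 normalized counts in the controls to 25.3 ± 3.84 (SD, n = 3). Its control level was under the minimum mean required for testing, so DCN entered the test only through its level with ConA. It was not tested with PMA. The only higher call of this list therefore rests on a gene with almost no control reads. The list's median was -0.44 with PMA and 0.69 with ConA, where DCN is included.

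**Figure D4:**
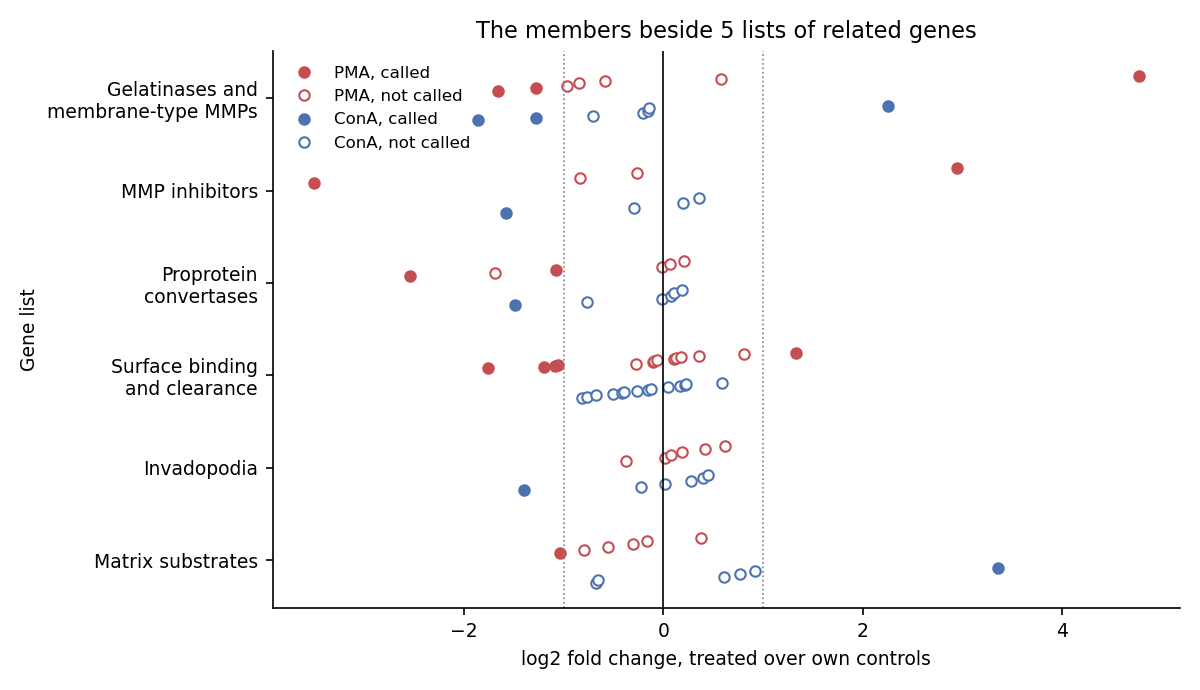
Log2 fold change over the controls of the same experiment for the 7 members and for each tested gene of the 5 related lists, with PMA in red and ConA in blue. Filled points are called genes, open points are not called, and dotted lines mark the minimum size for a call. MMP9 and TIMP1 are the called points above 2 with PMA, and TIMP3 is the lowest point.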

How the data were processed

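Transcripts were measured in 12 libraries of HT1080 cells (40 nM PMA or 40 µg/mL ConA for 24 h, each with its own 3 controls). The signal values that the authors deposited are counts per gene symbol which they had normalized, in 1 table for each experiment, apart from the other. Whole reads could not be recovered: at a tolerance of 0.02 under the best factor per library, 80.2% to 82.6% of values between 5 and 60 were whole, so no count model was fitted. The submitters' processing notes name Partek, Bowtie2, STAR and DESeq2 and the builds hg19 and mm10, without roles. The strand setting and the annotation are not given in the sources used here.

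Each experiment was tested with limma 3.58.1 (R 4.3.3, variance trend) on log2(value + 1), for genes with a mean of at least 10 (15153 genes for PMA, 15139 for ConA, 15030 for the difference over 12 libraries), with Benjamini-Hochberg adjustment over all genes tested. Fold changes of low genes are understated on this scale. The call (log2 fold change of at least 1, adjusted p of at most 0.0001) and all alternatives keep to this unit. Ratios within a library were compared by exact permutation over 3 against 3 libraries. Levels per kb used the union of exons in GENCODE 29 (GRCh38), matched for 15189 and 15109 genes. The spread between 3 libraries sets the precision: replicates differed by 3.83 to 18.9 times the sampling variance, so none was the same library deposited again.

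The members and lists were chosen with earlier results of these data known. The genes named are the 7 members, MMP25, MMP24OS, at most 4 genes of each list ranked by call and then size of change, and the 3 genes most like each called member. 1 gene was left out of the matrix substrate list and is not reported here. FURIN was named in addition, for its role, and COL1A1, as the other chain beside COL1A2, both after their values were seen. Alternatives covered the pseudocount, the filter, quantile normalization, median centring, the variance trend, the adjusted p, the replicate block and leaving out each library. Tables and figures used Python 3.11.15, numpy 2.4.6, pandas 2.3.3, scipy 1.17.1 and matplotlib 3.10.9.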

Additional observations from a re-analysis of the deposited data

Results flagged for a closer look

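The change of MMP9 differed between the agents: the log2 fold change with PMA exceeded that with ConA by 2.52 (limma adjusted p 7.19e-15), and MMP9 was higher in 3 of 3 libraries with each.

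With the scaling as deposited, MMP14 was higher in 3 of 3 PMA libraries and lower in 3 of 3 ConA libraries. Groups without overlap, in either direction, were found for 67.9% of all genes with PMA and 69.3% with ConA. The difference of the log2 fold changes was 0.73 (limma adjusted p 2.3e-07). Under quantile normalization the difference was 0.22 (limma adjusted p 0.0112), and the ConA side turned to 0.17, so no direction is given for MMP14 with ConA.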

How the results depend on the processing

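Of 378 alternatives run on the members' 21 fold changes, 362 kept their direction and their side of the threshold, 13 passed it, 2 lost it and 1 reversed. The settings that only loosened the threshold reused the same fit, so they could neither reverse a direction nor lose a call. MMP17 with PMA, without the third PMA library, alone passed the stated threshold. The others that passed did so only where the minimum fold was dropped. The reversal was MMP14 with ConA under quantile normalization (0.17), and the cause was not tested. Without the variance trend the calls numbered 867 for PMA and 662 for ConA, and 1 member was called with ConA, MMP16 (adjusted p 0.000239) and MMP24 (0.000221) being lost. At an adjusted p of at most 0.05 with no minimum fold, 9586, 9891 and 9183 genes passed with PMA, with ConA and for the difference, and 7, 6 and 6 members, as the looser rule implies. Leaving out each library gave 1107 to 1252 genes and 3 to 4 members with PMA, 1123 to 1415 genes and 3 members with ConA, and 1427 to 1594 genes and 1 member for the difference. Median centring moved all changes by 0.012 with PMA and 0.063 with ConA. PMA libraries and controls of the same number did not deviate together (correlations -0.064, 0.096 and 0.096). With the replicate number as a block, 1264 genes and 3 members were called with PMA, beside 1310 and 3 without it. For ConA, no paired analysis was possible because ConA libraries 1 to 3 and controls 4 to 6 share no numbers. The number of libraries, 3 per group, limits the precision of MMP24 and MMP25 most, whose SEs with ConA were 0.15 and 0.31.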
